A study of Mus musculus with 6 samples.

Results

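The genes described here are those for the proteins of the large subunit of the cytosolic ribosome, taken as the protein-coding rows of the deposited count table whose GENCODE vM21 symbol is Rplp0 to Rplp2 or Rpl followed by a number, with or without the endings a, l, al or l1. The rule found 52 genes among 49584 listed, including the paralogues Rpl10l, Rpl39l, Rpl22l1, Rpl36al, Rpl3l and Rpl7l1. The members were compared between Srp68 SKO and wild type mice at postnatal day 12, with 3 libraries of each, made by Smart-seq2 from leptotene and zygotene spermatocytes isolated by fluorescence-activated sorting. Smart-seq2 copies polyadenylated RNA into full-length cDNA and amplifies it by PCR, and leptotene and zygotene are the first stages of meiotic prophase. Srp68 codes for a protein of the signal recognition particle (SRP), and the series title joins its knockout to a defect of co-translational targeting and to meiotic arrest. The sources used here do not give the strain, the allele, the promoter of any Cre, the sort gates or whether each library came from a separate animal, so p-values measure the spread between these libraries, which may be technical.

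The large subunit holds the peptidyl transferase centre, where amino acids are joined, and the tunnel through which the growing chain leaves. At the mouth of that tunnel SRP docks on the ribosome and binds signal sequences as they emerge, with contacts to the proteins encoded by Rpl23a and Rpl35. Vertebrate ribosomal protein mRNAs begin with a run of pyrimidines, the terminal oligopyrimidine tract, through which mTOR signalling controls their translation. In male germ cells some X-linked ribosomal protein genes have autosomal copies, such as Rpl10l for Rpl10, that are expressed around the time at which the X chromosome is silenced in pachytene spermatocytes.

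Library totals ran from 11853738 to 15381473 counts, and all SKO totals were below all wild type totals. Srp68 was at 24.5 ± 4.12 CPM in wild type and 8.51 ± 3.11 CPM in SKO (SD, n = 3 each) (log2 fold change −1.52, SE 0.28; edgeR quasi-likelihood test, adjusted p = 0.00107). CPM are counts scaled to a common library size with edgeR's TMM factors, and a positive log2 fold change means a higher level in SKO. Markers of leptotene and zygotene were abundant in every library, with a summed level of 19645 to 24968 CPM over 12 genes in wild type and 29862 to 38166 CPM in SKO. Of these genes 9 rose and 2 fell. Among 11 pachytene markers 9 were tested, of which 6 fell and 1 rose, with a median log2 fold change of −1.68. Their summed level, 502 to 642 CPM in wild type and 433 to 542 CPM in SKO, has as its most abundant gene Hspa2, which did not pass (244 ± 39.8 and 257 ± 32.0 CPM), whereas Ldhc went from 55.7 ± 8.72 to 12.7 ± 2.84 CPM. Of 9 markers of differentiating spermatogonia, Stra8 and Rhox13 rose, Uchl1 and Sohlh2 fell and 5 did not pass (median −0.08). Their sum of 713 to 882 CPM in wild type and 1252 to 1347 CPM in SKO followed Stra8 (99.9 ± 14.1 and 486 ± 50.2 CPM) and Rhox13 (283 ± 58.9 and 513 ± 28.5 CPM). Markers of undifferentiated spermatogonia summed to 15.5 to 34.6 and 21.2 to 30.5 CPM. Sertoli cell markers summed to 108 to 122 CPM in wild type and 42.3 to 183 CPM in SKO, with the highest value in SKO replicate 3. That library also stood apart in macrophage markers, at 41.1 CPM where the other libraries had at most 2.77. Erythroid markers ran from 2.77 to 137 CPM in wild type and 37.4 to 150 CPM in SKO, and spermatid markers from 19.1 to 29.5 and 13.3 to 19.3 CPM, with Alas2, Prm2 and Tnp2 at 0 counts. Leydig, myoid and endothelial lists stayed at or below 13.3 CPM in every library, with Cyp11a1 and Cyp17a1 of the Leydig list and Des of the myoid list at 0 counts. The part of these markers in the results below was not tested. In bulk libraries, fewer cells of a type and less RNA per cell cannot be told apart.

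The promoters of the members share sequence that the naming rule did not use, and the windows below are shown because the paralogue pairs and Rpl35 carry the results that follow. RefSeq windows on GRCm38.p6, from 250 bases before to 50 bases after an annotated start, were matched by symbol for 40 of the 52 members, in 47 windows. Each line gives the 50 bases before the annotated start and the first 25 from it, 5′ to 3′ on the gene's strand, with the longest run of at least 8 bases that begins with C and holds only C or T in capitals (the first of them in Rpl39, where runs of equal length are shown).
Rpl35, chr2:39005107-39005181, minus strand: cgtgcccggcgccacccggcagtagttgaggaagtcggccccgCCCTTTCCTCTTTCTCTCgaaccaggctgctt
Rpl10, chrX:74270766-74270840, plus strand: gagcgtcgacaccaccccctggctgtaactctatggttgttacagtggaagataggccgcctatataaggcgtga
Rpl10l, chr12:66284377-66284451, minus strand: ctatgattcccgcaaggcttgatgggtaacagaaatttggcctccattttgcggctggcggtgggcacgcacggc
Rpl39, chrX:37085198-37085272, minus strand: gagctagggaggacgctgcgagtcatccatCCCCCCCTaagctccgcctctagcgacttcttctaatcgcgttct
Rpl39l, chr16:10170178-10170252, plus strand: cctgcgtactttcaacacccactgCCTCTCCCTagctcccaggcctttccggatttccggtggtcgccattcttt

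Rpl35 has an uninterrupted run of 18 pyrimidines across its annotated start. In Rpl10 and Rpl39 the longest run lies further along, at base 42 and base 37 counted from the start as base 1, with 9 and 14 bases. Rpl10l has no such run in the 100 bases around its start. Rpl36a and Rpl36al, not printed here, have runs of 13 and 9 bases, at base 28 and base 30. Within 50 bases on either side of an annotated start, on the gene's strand, a run of at least 8 was found for 35 of 40 members (87.5%), against 32.0% of all 27025 genes with a window. The members without one were Rpl10l, Rpl7l1, Rplp0, Rpl23 and Rpl24. Of these Rpl23 rose (log2 fold change 0.98), Rpl10l fell, Rpl7l1 and Rplp0 did not pass, and Rpl24 was not tested for a change. A link between the run and the change was not tested. The core bound by ETS factors such as GABP, searched as CCGGAA and, for the other strand, TTCCGG over all 300 bases, was found for 52.5% of the 40 members and 16.7% of all genes with a window. Annotated starts can lie some bases from the start used in these cells, and a match is a description of the letters.

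Most large subunit genes had more transcript in SKO spermatocytes than in wild type. Of the 51 members that passed the filter on low counts, 41 rose (80.4%), 1 fell and 9 did not pass, where 14.1% of all 13474 tested genes rose and 14.4% fell. The median log2 fold change of the 51 was 0.79, with quartiles of 0.62 and 1.08, beside −0.03 over all tested genes. Rises of at least 2-fold between group means were seen for 15 members. All 3 SKO libraries lay above all 3 wild type libraries for 43 tested members and below them for 2, where 21.6% and 22.2% of all tested genes did so. The members together took 2.93%, 3.13% and 3.17% of all counts in the wild type libraries and 4.55%, 4.44% and 4.24% in the SKO libraries. The share was thus higher in every SKO library (3.08 ± 0.126% against 4.41 ± 0.156%, SD, n = 3), 1.43 times that of wild type.

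**Figure D1:**
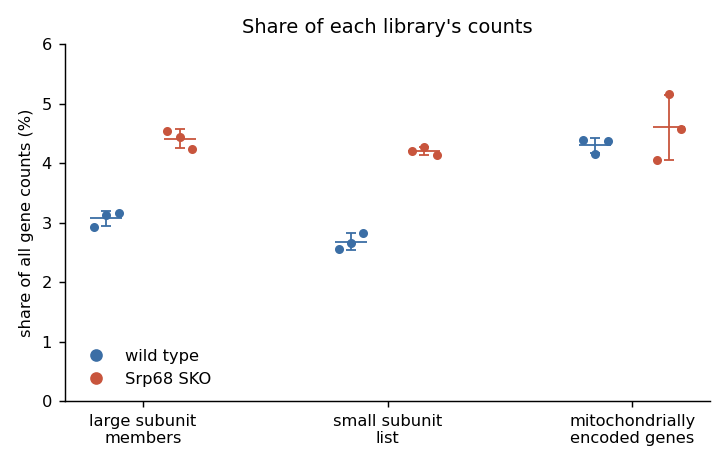
Share of all gene counts (%, vertical axis) held by the 52 large subunit genes, the small subunit list and mitochondrially encoded genes, for wild type (blue) and Srp68 SKO (red); points are libraries, and horizontal marks with bars are mean and SD (n = 3). The large subunit share is 2.93 to 3.17% in wild type and 4.24 to 4.55% in SKO.

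Scaling between libraries moved the size of the shift but hardly the count. When libraries were scaled by their totals alone, the median of all tested genes went from −0.03 to −0.29. That of the members went from 0.79 to 0.53. Members stood 0.82 above all genes in both, but scaling factors shift all genes nearly alike, so this gap could hardly change. The number of members that rose was 39 with library totals, and 39 to 42 when any single library was left out, SKO replicate 3 (42) included. Of all tested genes 7.5% rose and 23.5% fell with library totals, and 9.37% to 13.6% rose when single libraries were left out. Among all genes, by contrast, increases made up 49.5% of calls with TMM and 24.2% with library totals.

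**Figure D2:**
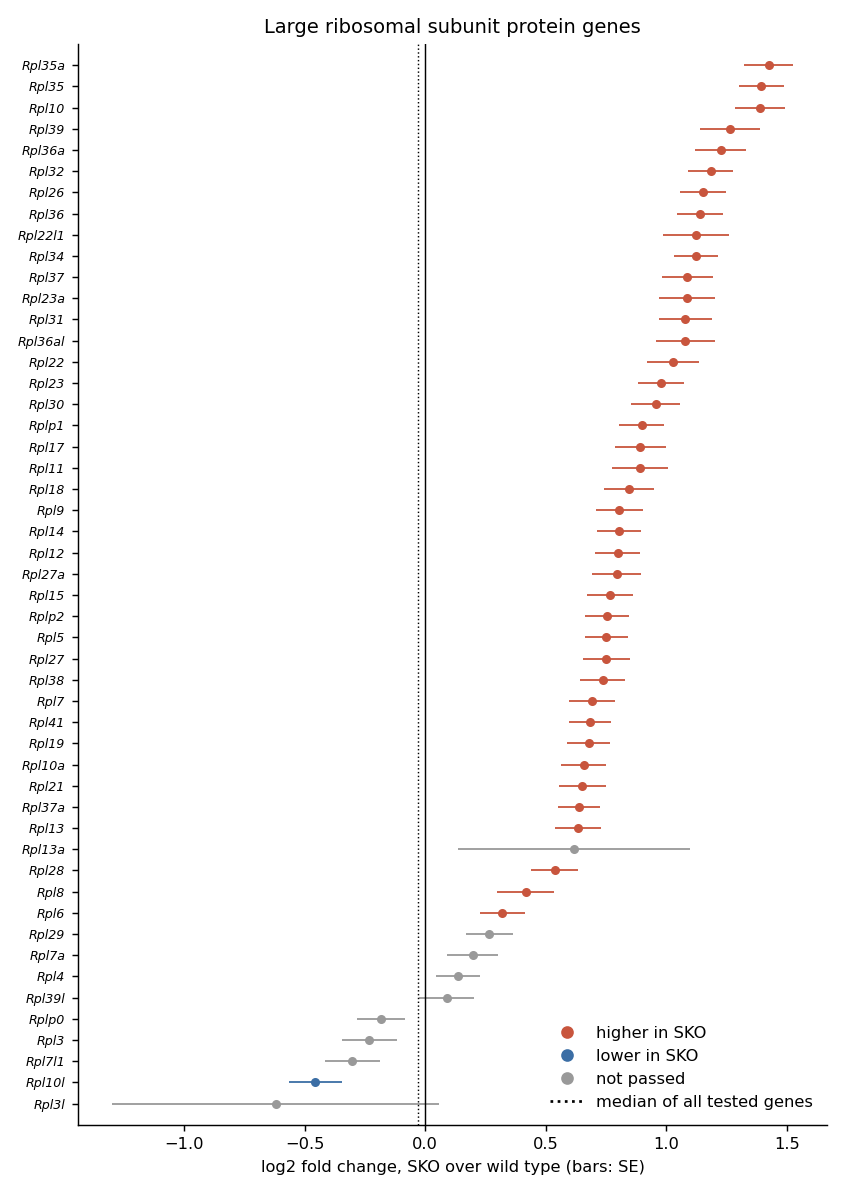
Log2 fold change of SKO over wild type (horizontal axis, bars are SE) for 50 of the 51 tested members, ordered by value; red marks genes that rose, blue the gene that fell, grey those that did not pass, and the dotted line is the median of all tested genes (−0.03). Values run from −0.62 for Rpl3l to 1.42 for Rpl35a.

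Both genes whose proteins touch SRP at the tunnel mouth rose, as did 41 of the 51 tested members. Rpl35 (ENSMUSG00000062997; GRCm38 chromosome 2, 39001580 to 39005624, minus strand), for the ribosomal contact of the SRP core, was at 585, 571 and 634 CPM in wild type and at 1462, 1579 and 1659 CPM in SKO. Every SKO library stood at more than 2 times any wild type library, and the log2 fold change was 1.39 (SE 0.09; edgeR adjusted p = 6.29e-07). Rpl23a (ENSMUSG00000058546; chromosome 11, 78180932 to 78183584, minus strand), whose protein binds both SRP and other factors at the exit, was at 81.9, 77.7 and 93.6 CPM in wild type and 179, 172 and 186 CPM in SKO. These groups did not overlap either, and the log2 fold change was 1.09 (SE 0.12; edgeR adjusted p = 1.87e-05). The exons of both genes overlap others on the opposite strand, over 66.2% of the annotated exon length of Rpl35 and 62.3% of that of Rpl23a (where a small nucleolar RNA on the same strand is included). How strand was used in counting is not stated, so their counts are uncertain. Of the neighbours, Arpc5l beside Rpl35 was at 373 ± 41.0 and 429 ± 22.6 CPM (edgeR adjusted p = 0.17), while Tlcd1 beside Rpl23a rose from 17.9 ± 2.87 to 32.8 ± 2.58 CPM (edgeR adjusted p = 0.00457). With pseudogene rows named after it, Rpl23a is also less certain than most: its 14 such rows held 13.6% of the joint counts in wild type.

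All 6 genes for the rim of the tunnel exit rose, and their median log2 fold change was 1.08. Over all 51 tested members 80.4% rose and the median was 0.79, and no difference from these was tested. Rpl26, next to the exit and a regulator of p53 translation, had 857, 830 and 946 CPM in wild type and 1819, 1900 and 2129 CPM in SKO. Rpl31, which lies at the binding site of exit-bound chaperones, had 337, 341 and 410 CPM and 694, 818 and 788 CPM. The groups did not overlap in either gene, and the log2 fold changes were 1.15 and 1.08. Of the exon length of Rpl31, 25.3% overlaps Tbc1d8 on the opposite strand. Its 21 pseudogene rows held 9.61% of the joint counts in wild type. Rpl37 (log2 fold change 1.09), Rpl22 (1.03) and its paralogue Rpl22l1 (1.12) were alike in size, and Rpl19, which also forms a bridge to the small subunit, was the smallest at 0.68 (edgeR adjusted p = 7.51e-05).

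Genes for the wall of the tunnel did not move together: 2 of 4 rose and 2 did not pass, the paralogue Rpl39l among the latter. Of all 51 tested members 80.4% rose, and no difference from this was tested. Rpl17 rose from 326 ± 32.1 to 605 ± 49.8 CPM (SD, n = 3; log2 fold change 0.89), with its 7 pseudogene rows holding 12.7% of the joint counts in wild type. Rpl4, which with the product of Rpl17 forms the narrowest part of the tunnel, was at 1100, 1055 and 974 CPM in wild type and 1223, 1108 and 1107 CPM in SKO. The SKO libraries lay just above the wild type ones, but the log2 fold change of 0.14 (SE 0.09) did not pass (edgeR adjusted p = 0.299) and was −0.12 with library totals. The remaining wall genes, Rpl39 and Rpl39l, are a paralogue pair described below.

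Members listed near the catalytic centre went both ways, with 5 of 8 higher, 1 lower and 2 that did not pass. The lower gene is the paralogue Rpl10l, and the paralogue Rpl3l is among those that did not pass. Of all 51 tested members 80.4% rose, beside 14.1% of all tested genes. No difference of the catalytic list from these was tested. The list holds Rpl27, whose protein is not the homologue of the bacterial protein of that number at the active site, and without it 4 of 7 were higher. Rpl10, whose protein reaches towards the active site and joins late in subunit maturation, had 258, 275 and 315 CPM in wild type and 758, 760 and 700 CPM in SKO. Its SKO libraries were all more than 2 times the highest wild type library (log2 fold change 1.39, SE 0.10; edgeR adjusted p = 1.14e-06). Rpl27 rose from 659 ± 65.8 to 1109 ± 47.7 CPM. Rpl8, whose protein contacts the active site RNA, rose from 317 ± 33.96 to 424 ± 54.9 CPM. The rise of Rpl8 was small (log2 fold change 0.42, SE 0.12; edgeR adjusted p = 0.0165). It was 0.16 (adjusted p = 0.36) with library totals, and did not pass without wild type replicate 1 (0.34; 0.084), SKO replicate 1 (0.31; 0.0746) or SKO replicate 2 (0.43; 0.0587).

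Rpl3, which also reaches the active site, went the other way in level without passing. It had 393, 406 and 315 CPM in wild type and 325, 326 and 298 CPM in SKO, groups that overlap (log2 fold change −0.23, SE 0.11; edgeR adjusted p = 0.145). With library totals it was called lower (−0.49; adjusted p = 0.00606), as without wild type replicate 3 (−0.33; 0.0297), and with the GC content and length correction its value was 0.078. Rpl3l, its muscle paralogue, had 70, 39 and 29 counts in wild type and 45, 12 and 8 in SKO, too few to show a difference (log2 fold change −0.62, SE 0.68; edgeR adjusted p = 0.54).

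**Figure D3:**
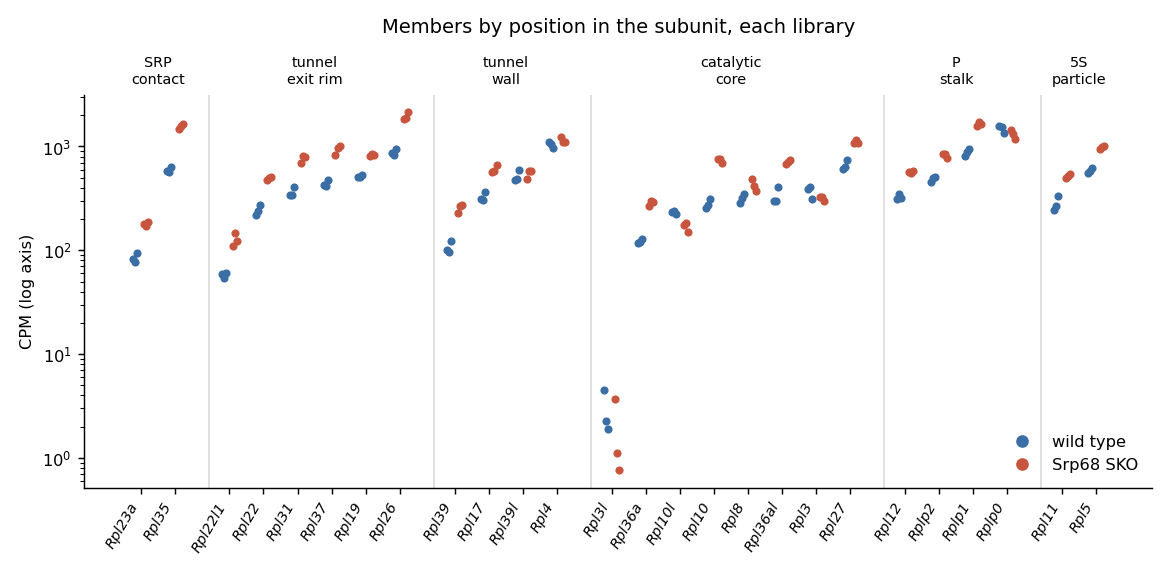
CPM (vertical log axis) of members grouped by position in the subunit as listed (Rpl27 stands in the catalytic list), with 3 wild type (blue) and 3 Srp68 SKO (red) libraries for each gene; the genes of a group are ordered by wild type level. Rpl35 stands at 571 to 634 CPM in wild type and 1462 to 1659 CPM in SKO, whereas the groups overlap for Rplp0, Rpl3, Rpl3l and Rpl39l, and Rpl10l is lower in SKO.

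In the stalk that recruits elongation factors, 3 of 4 genes rose and the scaffold did not. Of all 51 tested members 80.4% rose, and no difference from this was tested. Rplp0, for the scaffold protein that anchors the stalk, had 1572, 1544 and 1347 CPM in wild type and 1432, 1319 and 1177 CPM in SKO. The groups overlap, and the log2 fold change was −0.18 (SE 0.10; edgeR adjusted p = 0.191). Rplp1 and Rplp2 encode the acidic proteins that bind to that scaffold in pairs. Rplp1 had 809, 878 and 954 CPM in wild type and 1558, 1705 and 1659 CPM in SKO (log2 fold change 0.90; edgeR adjusted p = 1.33e-05). Rplp2 had 459, 499 and 505 CPM in wild type and 846, 841 and 780 CPM in SKO (0.75; 4.89e-05). Counts of both acidic genes per count of Rplp0 were 0.807, 0.892 and 1.08 in wild type and 1.68, 1.93 and 2.07 in SKO, with no overlap. The mRNAs of Rplp1 and Rplp2 are 499 and 449 bases long and that of Rplp0 1358 bases. The ratio was taken on raw counts, and the part of length in it was not tested. Rpl12, at the base of the stalk, rose from 326 ± 17.97 to 567 ± 10.7 CPM. The direction for Rplp0 depended on the processing: it was called lower with library totals (log2 fold change −0.44; edgeR adjusted p = 0.00549) and higher after the GC content and length correction (0.29; 0.0159).

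Rpl5 and Rpl11, whose proteins join 5S rRNA in a particle that can also inhibit the p53 ligase Mdm2, both rose. So did 80.4% of all 51 tested members. Rpl5 had 551, 586 and 623 CPM in wild type and 955, 999 and 1011 CPM in SKO (log2 fold change 0.75; edgeR adjusted p = 4.44e-05), although 26.7% of its annotated exon length overlaps other genes. Rpl11 had 247, 265 and 331 CPM in wild type and 500, 524 and 540 CPM in SKO (0.89; 7.37e-05). Neither gene showed any overlap between the groups.

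The 3 X-linked members, Rpl10, Rpl39 and Rpl36a, all rose, and were 3 of the 5 members with the largest log2 fold change. Rpl39 (ENSMUSG00000079641; chromosome X, 37082520 to 37085402), for a small protein in the tunnel wall, had 102, 96.7 and 122 CPM in wild type and 228, 268 and 272 CPM in SKO (log2 fold change 1.26, SE 0.12; edgeR adjusted p = 8.81e-06). Rpl36a had 117, 121 and 129 CPM in wild type and 269, 297 and 291 CPM in SKO (1.23, SE 0.10; 3.14e-06). For each of the X-linked members every SKO library lay above every wild type library. Together the X-linked members made up 1.77%, 1.77% and 1.91% of member counts in wild type and 2.64%, 2.70% and 2.61% in SKO. Of 611 other tested X-linked genes 166 rose (27.2%) and 23 fell, with a median log2 fold change of 0.38, and X-linked genes as a whole took 3.33 ± 0.0859% of counts in wild type and 4.28 ± 0.122% in SKO.

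Autosomal paralogues did not all follow their X-linked relatives. Rpl10l (ENSMUSG00000060499; chromosome 12, 66283379 to 66284401, minus strand), the copy of Rpl10 needed in spermatocytes for male fertility, was the only member that fell. It had 232, 239 and 224 CPM in wild type and 174, 184 and 149 CPM in SKO (log2 fold change −0.46, SE 0.11; edgeR adjusted p = 0.00685), with every SKO library below every wild type library. Rpl10 moved the opposite way, so Rpl10l went from 47.3%, 46.5% and 41.5% of the counts of the pair in wild type to 18.7%, 19.5% and 17.6% in SKO. The shares did not overlap (45.1 ± 3.14% against 18.6 ± 0.96%, SD, n = 3; exact two-sided permutation test, p = 0.1, adjusted p = 0.2 over 6 pairs), and 0.1 is the smallest p that 3 against 3 allows. The sum of the pair was 514 ± 24.4 CPM in wild type and 908 ± 51.5 CPM in SKO.

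Rpl39l (ENSMUSG00000039209; chromosome 16, 10170226 to 10174911, plus strand), the male germ cell paralogue of Rpl39, was the more abundant of its pair in every library. It had 471, 483 and 589 CPM in wild type and 487, 575 and 578 CPM in SKO, groups that overlap (log2 fold change 0.09, SE 0.11; edgeR adjusted p = 0.607), and its sign turned with library totals (−0.17) and with the GC content and length correction (−0.27). Because Rpl39 rose, the share of Rpl39l was 82.3%, 83.3% and 82.8% in wild type and 68.2%, 68.2% and 68.0% in SKO. Replicates differed by little beside the gap of 14.7 percentage points (two-sided exact permutation test, p = 0.1, adjusted p = 0.2). Per kilobase of mRNA the share of Rpl39l was 84.3% in wild type and 70.4% in SKO, and that of Rpl10l 39.1% and 15.1%.

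Rpl36al, the autosomal copy of Rpl36a, rose with its relative. It had 302, 299 and 408 CPM in wild type and 673, 715 and 742 CPM in SKO (log2 fold change 1.08; edgeR adjusted p = 2.73e-05), and held 73.1 ± 2.53% of the pair's counts in wild type and 71.3 ± 0.598% in SKO (SD, n = 3; exact two-sided permutation test, p = 0.3, adjusted p = 0.45). Those shares overlap between genotypes, and their difference of −1.79 percentage points was −0.35 without wild type replicate 3 and −2.72 without wild type replicate 2. Of its exon length, 24.5% overlaps another annotated gene, and 12.0% of joint wild type counts for Rpl36a were in pseudogene rows. The autosomal pair Rpl22 and Rpl22l1 likewise kept overlapping shares, with Rpl22l1 at 19.4 ± 1.71% and 20.3 ± 2.0% (exact permutation test, p = 0.5, adjusted p = 0.5).

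Rpl7l1, a nucleolar relative of Rpl7, was lower in every SKO library without passing. It had 179, 160 and 165 CPM in wild type and 152, 126 and 131 CPM in SKO (log2 fold change −0.30, SE 0.11; edgeR adjusted p = 0.0649). Rpl7 rose (log2 fold change 0.69; edgeR adjusted p = 0.000101), and the share of Rpl7l1 in the pair was 22.2%, 21.7% and 19.96% in wild type and 13.9%, 10.8% and 11.3% in SKO (two-sided exact permutation test, p = 0.1, adjusted p = 0.2). Rpl7l1 was called lower with the replicate block (adjusted p = 0.0448), with library totals (0.0033), with a filter of 5 CPM (0.0395) and without SKO replicate 1 (0.0342). For Rpl3 and Rpl3l the share of the paralogue was 0.762 ± 0.322% and 0.575 ± 0.478% (exact permutation test, p = 0.5, adjusted p = 0.5).

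**Figure D4:**
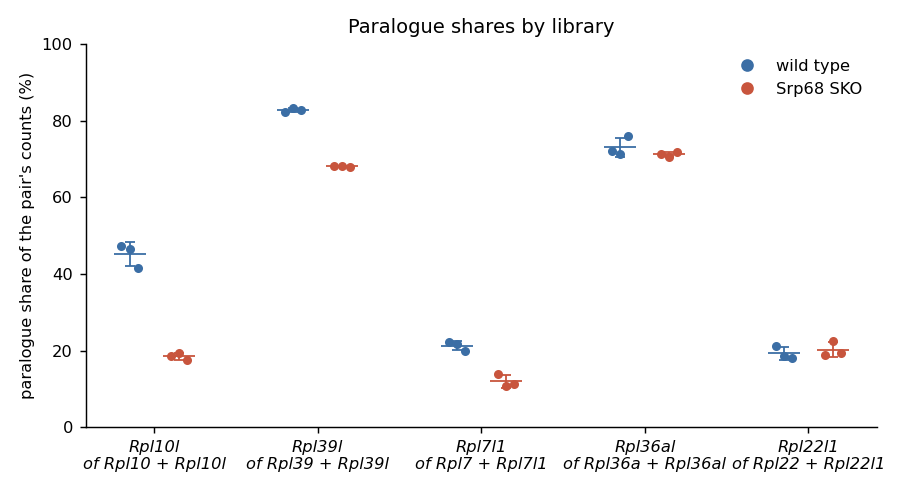
Share of a pair's counts held by the paralogue (%, vertical axis) for 5 pairs, in wild type (blue) and Srp68 SKO (red); points are libraries and marks with bars are mean and SD (n = 3). The shares of Rpl10l, Rpl39l and Rpl7l1 are lower in all SKO libraries, and those of Rpl36al and Rpl22l1 overlap.

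Of the 25 tested members with none of these positions, 21 rose, none fell and 4 did not pass, where 80.4% of all 51 tested members rose. Log2 fold changes of the 25 ran from −0.30 (Rpl7l1) to 1.42 (Rpl35a). Rpl35a, a gene mutated in some patients with Diamond-Blackfan anaemia, had the largest change of all members. It was at 797, 846 and 974 CPM in wild type and 2172, 2309 and 2547 CPM in SKO (SE 0.10; edgeR adjusted p = 9.13e-07), and every SKO library was more than 2 times any wild type library. Per kilobase of mRNA the highest wild type levels were those of Rpl41 (3031 CPM per kb), Rpl13 (1922) and Rpl32 (1907), and the lowest among tested members those of Rpl3l (2.102), Rpl13a (2.38) and Rpl22l1 (105). The smallest rises that passed were those of Rpl6 (log2 fold change 0.32; edgeR adjusted p = 0.0182), Rpl8, Rpl28 (0.54; 0.000909), Rpl13 (0.63; 0.000227) and Rpl37a (0.64; 9.98e-05). The call of Rpl6 was lost with library totals (0.06; 0.644), with wild type replicate 2 left out (0.29; 0.0736) and with SKO replicate 2 left out (0.28; 0.106).

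Rpl7a and Rpl29 did not pass, with levels of 421 ± 33.2 and 482 ± 44.5 CPM for Rpl7a (edgeR adjusted p = 0.186) and 356 ± 13.3 and 429 ± 32.3 CPM for Rpl29 (0.0575). Rpl29 was called higher under 9 alternatives, among them DESeq2 (adjusted p = 0.0213). Rpl7a was called higher after the GC content and length correction (0.29; 0.0461) and was at −0.062 with library totals.

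Rpl13a and Rpl24, for core proteins of the subunit, were almost uncounted in both genotypes. Rpl13a had 46, 45 and 29 counts in wild type and 51, 48 and 29 in SKO (edgeR adjusted p = 0.38), and Rpl24, the member left out by the filter, had 10, 20 and 5 counts in wild type and 6, 4 and 0 in SKO. In the annotation, 35.4% of the exon length of Rpl13a is also exon of Gm45713 or of small RNA genes on the same strand, and 47.0% of that of Rpl24 is also exon of Gm28037. Both of these overlapping genes are listed with 0 counts in every library. Whether reads in shared exons were left out of the count was not tested, and the values of Rpl13a and Rpl24 say little about their transcripts. In all, 26 members overlap some other annotated exon and 9 of them by more than 20% of exon length. Another 172 rows carry the name of 37 members as pseudogenes and held 0.0416 ± 0.00274% of counts in wild type and 0.0676 ± 0.00685% in SKO, and pseudogenes under other names were not analysed here.

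Within the family the shorter mRNAs had the larger fold changes. Spearman's rho between the length of the principal transcript and the log2 fold change was −0.46 across the 51 tested members, which share libraries and are not independent replicates. Of 34 members with an mRNA under 1000 bases 31 rose and none fell (median 0.89), and of 17 longer ones 10 rose and 1 fell (median 0.65). Length went with change among all genes too: the median was 0.36 for 1016 tested genes with a principal mRNA under 1000 bases and −0.12 for 10370 longer ones, with 36.1% and 12.6% called higher. The medians of the members were above these in both classes. After correction of each library for GC content and length, 44 members were called higher and 1 lower. In that fit 10.2% of all 13452 tested genes were called higher and 13.4% lower. The median of the members was then 0.83, beside −0.06 over all genes. The length in that correction was that of all annotated exons of a gene merged, not that of the principal mRNA. These lengths can differ widely (3526 and 510 bases for Rpl35a), so a correction for mRNA length itself was not tested.

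**Figure D5:**
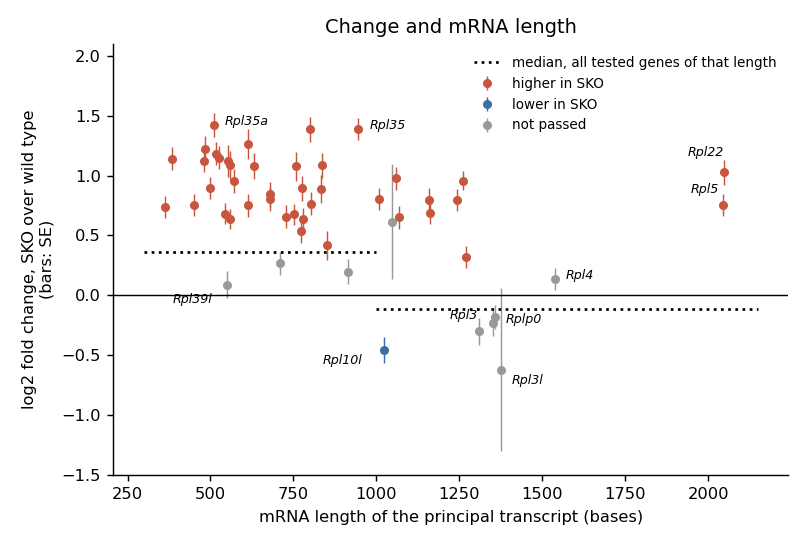
Log2 fold change of SKO over wild type (vertical axis, bars are SE) against length of the principal mRNA in bases (horizontal axis) for the 51 tested members, coloured by call, with some genes named; dotted lines are medians of all tested genes of that length (0.36 under 1000 bases, −0.12 above). Most points lie above the dotted line of their class.

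The other genes of the ribosome and its assembly were taken from lists. Of all 13474 tested genes 14.1% rose and 14.4% fell. The small subunit list had 32 of 35 tested genes higher, none lower and 3 that did not pass (median log2 fold change 0.89). Its smallest p-values were those of Rps27 (log2 fold change 1.54), Rps19 (1.29) and Rps28 (1.14). Large subunit counts per small subunit count were 1.15, 1.17 and 1.12 in wild type and 1.08, 1.04 and 1.03 in SKO, so the SKO libraries were lower by a ratio of 0.914.

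Factors that assemble the large subunit did not show the same pattern, with 7 of 42 tested genes higher, 11 lower and 24 not passed (median −0.16). Beside this list and those below, 14.1% of all tested genes rose and 14.4% fell. Among the assembly factors Aamp, a relative of the yeast escort of the Rpl10 protein, fell from 118 ± 30.9 to 43.1 ± 8.03 CPM (edgeR adjusted p = 7.67e-05). Bop1, a processing factor, fell from 19.6 ± 1.98 to 6.81 ± 1.91 CPM, and Ddx18, a helicase, from 193 ± 13.9 to 125 ± 9.79 CPM. Those that rose, named here after their values were seen, include Nsa2 (log2 fold change 0.55; edgeR adjusted p = 0.00139), Rpf2 (0.56; 0.00206) and the export adaptor Nmd3 (640 ± 69.7 to 903 ± 69.5 CPM; 0.00262). Of 19 listed mRNAs outside the members that are known for a terminal oligopyrimidine tract, 8 rose, 5 fell and 6 did not pass (median 0.12). Of those that rose 4 are counted in another list too, Rack1 and Fau in the small subunit and Naca and Btf3 at the tunnel exit. Npm1, a nucleolar chaperone, rose from 1287 ± 101 to 2536 ± 138 CPM, and Naca, of the complex that binds nascent chains at the tunnel mouth, from 524 ± 32.6 to 852 ± 30.0 CPM. The elongation factor genes of the list, named after their values were seen, went both ways. Eef2 (log2 fold change −0.65; edgeR adjusted p = 0.00353), Eef1g (−0.51; 0.00443) and Eef1a1 (−0.31; 0.0306) fell, Eef1b2 rose (0.57; 0.000709) and Eef1d did not pass (−0.14; 0.43). Among 15 tested factors that act at the tunnel exit, 5 rose, 2 fell and 8 did not pass, and the list includes Srp68 itself. The large subunit of the mitochondrial ribosome, encoded in the nucleus, had 19 of 48 tested genes higher, 9 lower and 20 that did not pass (median 0.18). These medians and counts describe the lists, and no difference between lists was tested.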

How the data were processed

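Per the labels, polyadenylated RNA of sorted spermatocytes was copied and amplified with a whole-transcriptome kit and made into libraries by fragmentation with a commercial library kit. Per the submitters' processing notes, FastQC, Trim Galore 0.6.4 and HISAT2 2.0.5 were used, and GRCm38 and mm10 are named as builds. Counter, strand setting and annotation: not given in the sources used here. Raw counts per gene, with no normalization, were deposited by the authors. Knockout columns read CKO where the labels read SKO, and were matched by genotype and replicate number. GENCODE vM21 (GRCm38) gave symbols, positions and lengths for 49325 of 49584 identifiers.

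Counts were fitted over all genes in R 4.3.3 with edgeR 4.0.16 (filterByExpr, TMM, quasi-likelihood test, two-sided, with genotype alone in the model) and p-values adjusted by Benjamini-Hochberg over the 13474 tested genes, with a threshold of 0.05. Standard errors come from the same fit. The script was tested on simulated data. No pair of replicates was within sampling noise (chi-square over degrees of freedom 12.0 to 22.2), and the labels name no molecular identifiers. Members and lists were chosen with earlier results of these data known. Genes were named by role list, paralogue pair, size of change, failure to pass and level per kilobase. Some genes of these groups are counted but not reported by name here. Length of mRNA is that of the principal (APPRIS) transcript, the median where there are several. The loess offsets instead used the length of all annotated exons of a gene merged.

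Alternatives were other scalings (DESeq2 size factors, upper quartile, library totals, TMM without ribosomal and mitochondrial genes), other filters, robust edgeR, DESeq2 1.42.0, limma-voom 3.58.1, a replicate block, loess offsets (span 0.3) for GC content and length, added pseudogene rows, a threshold of 0.01, and each library left out in turn.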

Additional observations from a re-analysis of the deposited data

How the results depend on the processing

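The count of members that rose ranged from 39 to 44 over the alternatives tried, and that of members that fell was 1 in most: it was 4 with library totals, 2 with a filter of 5 CPM and 2 with the replicate block. Leaving out single libraries gave 1 to 2. Of all tested genes 7.5% (library totals) to 21.9% (filter of 5 CPM) rose. Those that fell were 8.0% (no filter on low counts) to 23.5% (library totals). The median log2 fold change of the members was 0.53 with library totals and 0.75 to 0.82 when single libraries were left out. Of the 42 called members, 40 kept call and direction throughout, and the exceptions were Rpl6 and Rpl8. Signs turned for Rpl39l (−0.17), Rpl7a (−0.062) and Rpl4 (−0.12) with library totals, and for Rpl39l (−0.27), Rpl3 (0.078) and Rplp0 (0.29) with the GC content and length correction, likewise with the replicate block added to it (−0.26, 0.080 and 0.29); the cause was not tested. Same-numbered libraries had deviation correlations of 0.017, −0.051 and 0.034, within the range of differently numbered ones (−0.092 to 0.080). No pairing by replicate number was seen, but 3 libraries per genotype are too few to exclude it. The block gave 41 members higher, beside 14.7% of all tested genes. The Rpl22l1 share difference between SKO and wild type, 0.922 percentage points, ranged from −0.217 (without SKO replicate 2) to 1.9 when single libraries were left out. That of Rpl36al, −1.79, ranged from −2.72 to −0.35 (without wild type replicate 3). Counts of Rpl3l, Rpl13a and Rpl24 are too low to show a difference at this depth, and why they are low was not tested.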
